A study of Homo sapiens with 12 samples.

Results

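Complement is a set of plasma and cell-surface proteins that tag microbes and dying cells and call in phagocytes. The liver makes most of the circulating proteins, but macrophages make C1q, C3, factor B, factor D and properdin themselves and carry receptors for the fragments released. The transcripts described here are those of 10 complement genes: the C1q chains C1QA, C1QB and C1QC, the central component C3, the alternative pathway genes CFB, CFD and CFP, and the receptors C3AR1, C5AR1 and CR1. They were chosen by gene symbol, and every probe set that the platform's gene table assigns to 1 of these symbols was taken. That gave 16 of the 49395 probe sets on the array.

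The cells were THP-1, a human monocytic leukaemia line, measured on 12 Affymetrix PrimeView arrays in 4 groups of 3. Cells labelled 40 °C were set against cells labelled 37 °C. For all 4 groups, the protocol describes prior differentiation into macrophage-like cells with 100 ng/ml of the phorbol ester PMA for 48 hours. Cells labelled siThermomir (titled siRNA), called inhibitor here, were set against cells labelled control (titled WT). By the shared protocol, a hairpin inhibitor of a microRNA and a plasmid for GFP were brought by nucleofection into cells that had been differentiated at 40 °C, and GFP-positive cells were sorted after 24 hours. The protocol names inhibitors of miR-142, miR-143 and ThermoMIR-1 and a control inhibitor for a microRNA not found in humans, but the array labels do not say which was used, what the cells labelled control were given, how long cells were kept at 40 °C and whether replicates were separate cultures. The p-values below therefore describe only array-to-array spread within this set, possibly technical in origin. Since RNA came from bulk cultures, fewer expressing cells and less RNA per cell cannot be told apart.

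Values are the deposited log2 expression levels, whose normalization is not given in the sources used here. Array medians lay between 5.72 and 5.87. The 23 background probe sets had medians between 2.90 and 3.04 on the 12 arrays, but they spread widely, with lowest values of 2.02 to 2.37 and highest values of 9.58 to 10.39, so their median is no floor for any single probe set. Each gene was represented by its brightest probe set, and 13909 genes with a 12-array mean of at least log2 4.48 were tested in each experiment alone with limma. "Called" means a Benjamini-Hochberg adjusted p under 0.05 over those 13909 genes. Of the 10 members, 8 passed this filter, C1QC and CR1 did not, and 11 of the 16 probe sets had a mean above it. A separate fit over all 49293 probe sets that are not controls gave the values of second and fainter probe sets. The number of arrays limits the precision, and with 3 arrays against 3 an exact permutation test cannot give a p under 0.1, so none was run.

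The macrophage identity of the cells was checked on 10 monocyte and macrophage markers, all of which lay above the filter on average. CSF1R, the receptor for macrophage colony-stimulating factor, averaged between 10.09 and 10.64 in the 4 groups. The macrophage marker CD68 averaged between 10.79 and 12.42. CD14, a co-receptor for bacterial lipopolysaccharide, averaged 9.05 at 40 °C and 8.82 at 37 °C, and 6.47 in inhibitor cells and 7.26 in control cells. Other markers moved more within a comparison. LYZ (lysozyme) averaged 7.98 in inhibitor cells and 10.32 in control cells, and the Fc receptor gene FCGR1A averaged 8.77 in inhibitor cells and 10.24 in control cells. At 40 °C AIF1 averaged 9.45, against 10.36 at 37 °C, and the scavenger receptor CD163 averaged 6.27, against 5.30 at 37 °C. The summed linear signal of the 10 markers was 18815 to 19624 at 40 °C and 17229 to 17959 at 37 °C, and 13112 to 13694 in inhibitor cells and 17496 to 18367 in control cells. Neither pair of groups overlapped, and the part of this shift in the complement differences was not tested. A mean of 7 or more was reached by 8 of the 10 macrophage markers. None of 8 markers of hepatocytes, the source of most plasma complement, reached it, and ALB (albumin) lay between 4.04 and 4.33. At the lower threshold of the filter, 4 of the 8 hepatocyte markers also passed. The highest of them, APOA1 (mean 6.54), lay above the lowest macrophage marker, SPI1 (5.75).

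The upstream sequences of 3 members are shown because C5AR1 and C1QB rose at 40 °C while C3AR1 fell. They are the 250 bases before the annotated start, from RefSeq (GRCh38.p14), read 5′ to 3′ on the gene's strand. Capitals mark matches to 6 short motifs searched on both strands.
C5AR1, chr19:47309611-47309860, plus strand: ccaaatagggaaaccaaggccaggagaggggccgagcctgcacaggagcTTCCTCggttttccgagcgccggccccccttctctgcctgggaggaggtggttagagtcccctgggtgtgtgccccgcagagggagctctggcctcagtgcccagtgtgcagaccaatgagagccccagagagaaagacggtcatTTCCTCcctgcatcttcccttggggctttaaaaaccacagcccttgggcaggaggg
C1QB, chr1:22652986-22653235, plus strand: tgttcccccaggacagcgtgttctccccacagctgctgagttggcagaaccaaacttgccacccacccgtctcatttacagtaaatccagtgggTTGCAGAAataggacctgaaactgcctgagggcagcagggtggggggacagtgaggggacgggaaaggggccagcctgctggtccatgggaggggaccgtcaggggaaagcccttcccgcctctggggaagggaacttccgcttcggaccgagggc
C3AR1, chr12:8066360-8066609, minus strand: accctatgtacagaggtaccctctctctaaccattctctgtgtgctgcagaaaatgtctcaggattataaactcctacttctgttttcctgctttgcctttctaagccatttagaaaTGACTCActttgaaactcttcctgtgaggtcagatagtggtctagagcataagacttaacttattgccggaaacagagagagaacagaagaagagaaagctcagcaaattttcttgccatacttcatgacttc

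The motifs were both orientations of the heat shock factor pair (GAANNTTC and TTCNNGAA), AP-1 (TGANTCA), PU.1 (GAGGAA), C/EBP (TTGCNNAA) and the interferon-stimulated response element. Neither heat shock pair was found in the 10 windows of the 8 members with an entry, and they occur in 5.8% and 6.62% of all 34943 windows of this length. C5AR1 held 2 PU.1 matches, at bases 201 to 196 and 56 to 51 before the start, a motif found in 23.6% of all windows. C3AR1 held the only AP-1 match among these 8 members, at bases 133 to 127 before the start, against 6.59% of all windows. C3 and C1QC had no entry and were not searched. C1QB held a C/EBP match at bases 156 to 149, a motif found in 9.06% of all windows. Both C1QA windows held a C/EBP match too, at bases 168 to 161 and 118 to 111 before their starts. CFB held the interferon element (3.02% of all windows) and 1 CFP window held 2 PU.1 matches. These are letter matches within a short window and are not evidence of binding.

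The first comparison asked how a fever-like temperature changes transcripts of macrophage-like cells. C5AR1 rose most among the members and was 1.71-fold higher at 40 °C, while C3AR1, which encodes the other anaphylatoxin receptor of the set, fell and was 1.20-fold lower. C1QB rose 1.25-fold, and CFD and CFB fell by less than either receptor moved. Of the 8 members tested, 2 were called higher, 3 lower and 3 were not called. Over all 13909 genes 39.3% were called (21.6% higher and 17.7% lower), and groups did not overlap for 5 of the 8 members and for 49.5% of all genes. The median difference of the 8 members was 0.02 on the log2 scale, against 0.013 over all genes tested. At the level of probe sets, 5 of the 16 were called (24.6% of all probe sets), 3 higher (12.8% of all) and 2 lower (11.8% of all).

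C1q is the recognition protein of the classical pathway, built from A, B and C chains whose genes lie next to each other on chromosome 1 in the order C1QA, C1QC, C1QB. C1QB had log2 levels of 5.68, 5.81 and 5.52 at 40 °C, against 5.32, 5.40 and 5.33 at 37 °C. The lowest array at 40 °C stood above the highest at 37 °C, and the difference was 0.32 (SE 0.07; limma, adjusted p = 0.0101). The second C1QB probe set had 4.56, 4.91 and 4.85 at 40 °C, against 4.49, 4.65 and 4.72 at 37 °C, which overlap. Its difference of 0.15 was not called (limma over all probe sets, adjusted p = 0.349). With the level of the poly-A spikes (bacterial RNAs added before labelling) as a covariate, the C1QB difference was 0.10 and was not called (limma, adjusted p = 0.565, in a range of 0.00347 to 0.565 over the alternatives). Spike levels were 7.92 to 7.98 at 40 °C and 7.85 to 7.90 at 37 °C, without overlap. A fit with this covariate therefore cannot separate the spike level from the temperature.

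The other chains did not pass the test. C1QA had 6.48, 6.48 and 6.49 at 40 °C, against 6.48, 6.30 and 6.61 at 37 °C. The 40 °C arrays lay inside the spread of the 37 °C arrays, and the 95% confidence interval of the difference ran from −0.15 to 0.19. C1QC lay below the filter, at 4.10 to 4.38 at 40 °C and 4.18 to 4.27 at 37 °C, so the B chain was the only C1q chain with a call at this temperature.

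C3 is the protein on which all activation routes converge, and factor B, factor D and properdin (CFB, CFD, CFP) form and stabilise the convertase of the alternative pathway. C3 had 8.33, 8.37 and 8.27 at 40 °C, against 8.26, 8.37 and 8.22 at 37 °C. These groups overlap, and the interval of the difference ran from −0.09 to 0.17. CFD, the protease that cleaves factor B, had 10.48, 10.42 and 10.35 at 40 °C, against 10.61, 10.67 and 10.60 at 37 °C. All 40 °C arrays were lower, and the difference of −0.21 (SE 0.05) was called (limma, adjusted p = 0.0121).

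CFB, the proenzyme of the same convertase, had 5.20, 5.23 and 5.18 at 40 °C, against 5.32, 5.36 and 5.50 at 37 °C on its brightest probe set. The groups did not overlap, and the difference of −0.19 (SE 0.06) was called over genes (limma, adjusted p = 0.0300). It was not called over all probe sets (0.0623), nor without 37 °C replicate 3 (limma, difference −0.14, adjusted p = 0.0851) or without 40 °C replicate 1, 2 or 3 (−0.19, −0.20 and −0.18, adjusted p 0.0685, 0.0576 and 0.0869). Over its alternatives the adjusted p ran from 0.0255 to 0.320. The other 3 CFB probe sets, with 12-array means of 3.29 to 4.62, differed by −0.02 to 0.15 and were not called. CFP had 5.67, 6.06 and 5.68 at 40 °C, against 5.80, 5.92 and 5.64 at 37 °C, which overlap, with an interval from −0.25 to 0.28.

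C3a and C5a, the small fragments cut from C3 and C5, act through the G protein-coupled receptors C3AR1 and C5AR1, and CR1 binds C3b on cell surfaces. C5AR1 had 8.64, 8.46 and 8.57 at 40 °C, against 7.74, 7.85 and 7.76 at 37 °C. Every 40 °C array stood above every 37 °C array, and the difference was 0.77 (SE 0.06; limma, adjusted p = 5.6e-05). The second C5AR1 probe set gave the same direction, with 6.68, 6.50 and 6.52 at 40 °C, against 5.98, 6.02 and 5.92 at 37 °C. Its difference was 0.59 (SE 0.07; limma over all probe sets, adjusted p = 0.000474). The C5AR1 call held under all 16 alternatives, with differences from 0.68 to 0.82.

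C3AR1 had 9.85, 9.81 and 9.71 at 40 °C, against 9.98, 10.11 and 10.05 at 37 °C. The 40 °C arrays were all lower, and the difference was −0.26 (SE 0.06; limma, adjusted p = 0.00808). This call and that of CFD held under all 16 alternatives each, with adjusted p up to 0.0471 for C3AR1 and 0.0434 for CFD. The CR1 probe sets lay below the filter in both groups, at 2.75 to 2.98 and 3.40 to 3.52 at 40 °C and at 2.84 to 2.89 and 3.19 to 3.57 at 37 °C, and were not called.

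**Figure D1:**
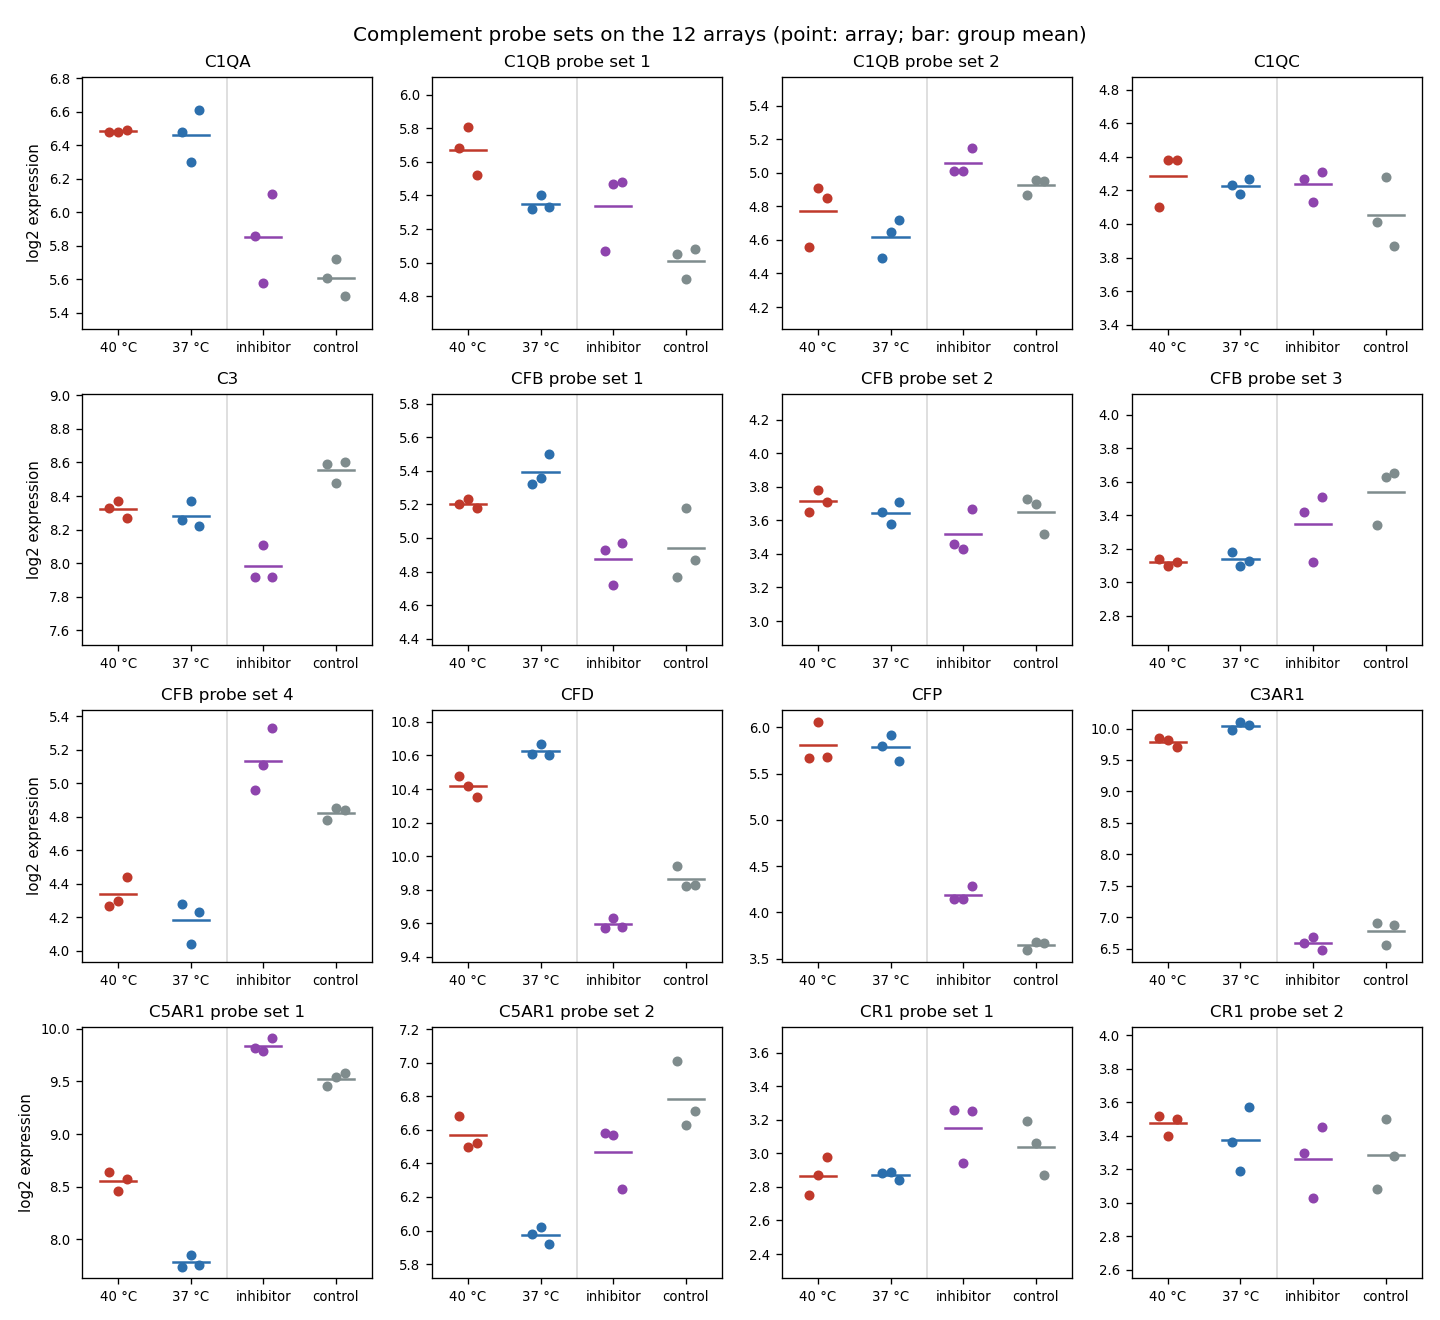
Log2 expression of the 16 complement probe sets on the 12 arrays; each point is an array and each bar a group mean, with the temperature experiment left of the grey line and the inhibitor experiment right of it. Axes differ between panels. C5AR1 probe set 1 stands at 8.46 to 8.64 at 40 °C, above 7.74 to 7.85 at 37 °C, and C3AR1 lies far lower in the inhibitor experiment than in the temperature experiment.

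The second comparison asked what blocking a thermomiR changes. C3 fell and was 1.49-fold lower in inhibitor cells, CFD was 1.21-fold lower, and the brighter C5AR1 probe set was 1.24-fold higher. CFP was also called higher, but all 6 of its values lay below the filter, which it passed only through the temperature arrays. Of the 8 members tested, 2 were called higher, 2 lower and 4 were not called, where 45.2% of all 13909 genes were called (25.7% higher and 19.6% lower). Groups did not overlap for 4 of the 8, and for 54.1% of all genes. The members' differences had a median of 0.09, as did those of all genes tested. Of the 16 probe sets 4 were called, 2 higher and 2 lower, where 30% of all probe sets were called (14.8% higher and 15.2% lower). The poly-A spikes were lower on the inhibitor arrays, at 5.87 ± 0.32 against 7.22 ± 0.37 on the control arrays (SD, n = 3 each). With their level as a covariate none of the 8 members was called with limma, and 1 had an unadjusted p under 0.05. Spike levels did not overlap, at 5.50 to 6.08 on the inhibitor arrays and 6.98 to 7.64 on the control arrays. The covariate thus nearly follows the group, so a call lost with it does not separate the spike level from the group difference. The 18S ribosomal RNA control probe sets moved with the same groups, at a mean of 9.67 to 10.39 on the inhibitor arrays against 12.59 to 12.85 on the control arrays. The summed macrophage markers were lower in inhibitor cells too, as given above. The part of the 18S signal and of the markers in these differences was not tested.

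C3 had 7.92, 8.11 and 7.92 in inhibitor cells, against 8.59, 8.48 and 8.60 in control cells. All inhibitor arrays were lower, and the difference was −0.57 (SE 0.08; limma, adjusted p = 0.000766). With the spike covariate it was −0.60 with an SE of 0.22 and was not called (limma, adjusted p = 0.218, the highest over the alternatives, which began at 5.65e-06). CFD had 9.57, 9.63 and 9.58 in inhibitor cells, against 9.94, 9.82 and 9.83 in control cells. Its groups did not overlap, and the difference was −0.27 (SE 0.06; limma, adjusted p = 0.0086). The spike covariate gave −0.33 for CFD (limma, adjusted p = 0.380, where the alternatives began at 0.000433).

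CFP had 4.14, 4.14 and 4.29 in inhibitor cells, against 3.59, 3.68 and 3.67 in control cells. The groups did not overlap, and the difference was 0.54 (SE 0.07; limma, adjusted p = 0.000577). All 6 values lay below the filter of 4.48, so this is a difference between faint signals. The spike covariate gave 0.45 for CFP (limma, adjusted p = 0.276, where the alternatives began at 7.61e-05). The brightest CFB probe set had 4.93, 4.72 and 4.97 in inhibitor cells, against 4.77, 5.18 and 4.87 in control cells. These overlap, and the interval of the difference ran from −0.35 to 0.21. The other 3 CFB probe sets differed by −0.13, −0.19 and 0.31. The last of these had 4.96, 5.11 and 5.33 in inhibitor cells, against 4.78, 4.85 and 4.84 in control cells, with no overlap and no call (limma over all probe sets, adjusted p = 0.0529).

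The 2 probe sets of C5AR1 went opposite ways. The brighter one had 9.82, 9.79 and 9.91 in inhibitor cells, against 9.46, 9.54 and 9.58 in control cells. All inhibitor arrays were higher, with a difference of 0.31 (SE 0.06; limma, adjusted p = 0.00557). The other had 6.58, 6.57 and 6.25 in inhibitor cells, against 7.01, 6.63 and 6.71 in control cells. All its inhibitor arrays were lower, with a difference of −0.32 (SE 0.13) that was not called over all probe sets (limma, adjusted p = 0.106). The mean of both gave a difference of −0.002, and the spike covariate 0.24 (limma, adjusted p = 0.985 and 0.558, in a range of 0.000149 to 0.985). The ID of the brighter probe set ends in x_at, which on Affymetrix arrays marks probes that may also match other transcripts. A direction for C5AR1 under the inhibitor therefore depends on the probe set read.

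C3AR1 had 6.58, 6.69 and 6.47 in inhibitor cells, against 6.91, 6.55 and 6.87 in control cells. The groups overlap through control replicate 2. The difference was −0.20, with an interval from −0.45 to 0.06, and without that array it was −0.31 and was called (limma, adjusted p = 0.0282, in a range of 0.0192 to 0.496 over the alternatives).

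The C1q chains were not called. C1QA had 5.86, 5.58 and 6.11 in inhibitor cells, against 5.61, 5.72 and 5.50 in control cells, which overlap. The difference of 0.24 had an interval from −0.07 to 0.55, and without inhibitor replicate 2 it was 0.37 and called (limma, adjusted p = 0.0224, in a range of 0.0111 to 1 over the alternatives). C1QB had 5.07, 5.47 and 5.48 in inhibitor cells, against 5.05, 4.90 and 5.08 in control cells. Only inhibitor replicate 1 reached into the control range. The difference was 0.33 (limma, adjusted p = 0.0574), and without that array it was 0.46 (limma, adjusted p = 0.00641, in a range of 0.00641 to 0.941 over the alternatives). The second C1QB probe set had 5.01, 5.01 and 5.15 in inhibitor cells, against 4.87, 4.96 and 4.95 in control cells. These did not overlap, and the difference of 0.13 was not called (limma over all probe sets, adjusted p = 0.251). C1QC, below the filter, lay at 4.13 to 4.31 in inhibitor cells and at 3.87 to 4.28 in control cells. CR1 lay at 2.94 to 3.26 and 3.03 to 3.45 in inhibitor cells and at 2.87 to 3.19 and 3.08 to 3.50 in control cells on its probe sets.

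**Figure D2:**
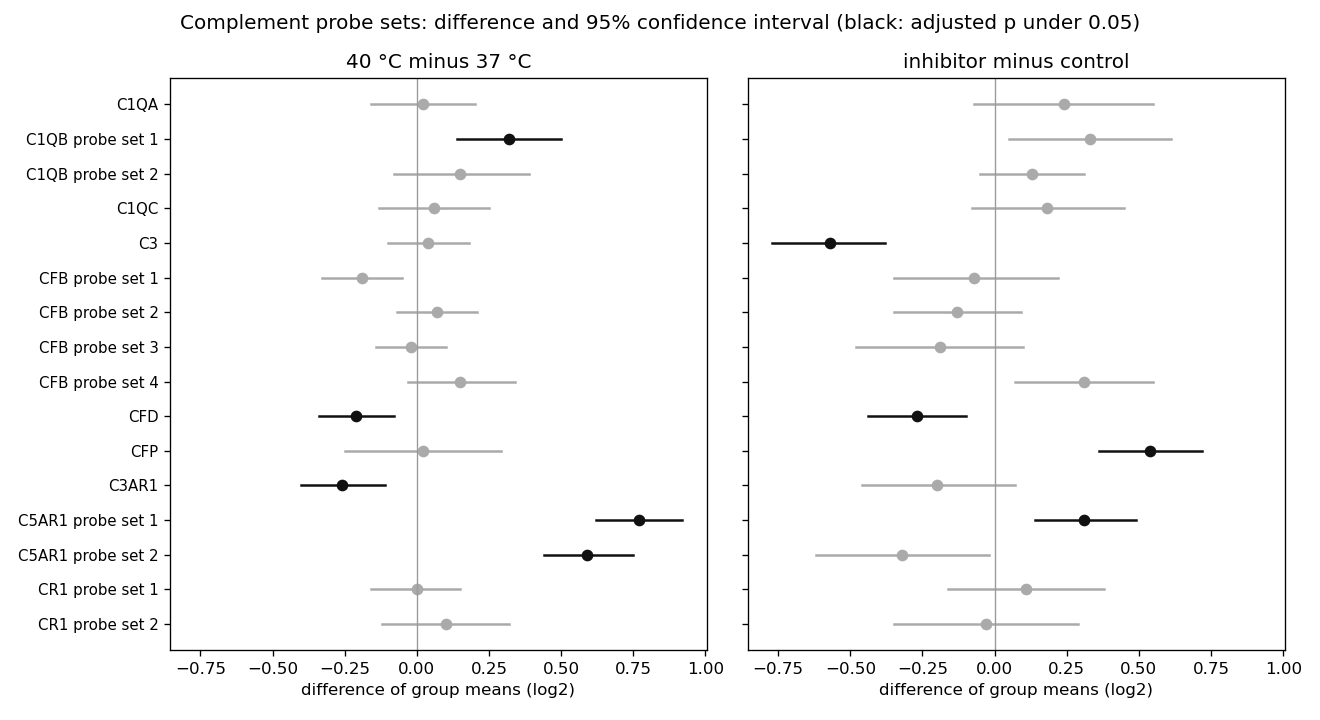
Difference of group means on the log2 scale for each of the 16 complement probe sets, with the 95% confidence interval from limma over all 49293 probe sets; black marks an adjusted p under 0.05. C5AR1 probe set 1 is higher in both comparisons (0.77 and 0.31), whereas probe set 2 is higher at 40 °C (0.59) and differs by −0.32 with the inhibitor.

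Several members differed more between the experiments than within them. These levels are given without a test, because the experiments differ in handling and a shared normalization is not stated. C3AR1 averaged 6.78 ± 0.20 in the control cells of the inhibitor experiment and 9.79 ± 0.07 at 40 °C in the temperature experiment (SD, n = 3 each), an 8.07-fold lower level. Its order from high to low was 37 °C, 40 °C, control and inhibitor, and only the last pair overlapped. CFP averaged 3.65 ± 0.05 in control cells and 5.80 ± 0.22 at 40 °C. No fold is given for it, since the control values lie below the filter that CFP passed only through the temperature arrays. In its order of 40 °C, 37 °C, inhibitor and control only the first pair overlapped.

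CFD and C1QA were also lower in those control cells than at 40 °C, by 1.47-fold and 1.83-fold, with no overlap. The brightest C1QB probe set was 1.58-fold lower there with no overlap, while its second probe set overlapped. The brightest CFB probe set overlapped, and the fainter CFB probe sets that stood higher in control cells had values below the filter at 40 °C. The order for CFD was 37 °C, 40 °C, control and inhibitor with every step apart. C3 was 1.18-fold higher in control cells than at 40 °C and had its lowest mean in inhibitor cells. The brighter C5AR1 probe set ran from inhibitor through control and 40 °C to 37 °C with every step apart, 1.96-fold higher in control cells than at 40 °C. The second C5AR1 probe set overlapped between control cells and 40 °C. For C1QC and CR1 no neighbouring groups in the order stood apart.

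The genes whose profile over the 12 arrays was most like that of a member were found by the root mean square difference of log2 values, each gene centred on its own mean, among 13908 other tested genes. Nearest to C3AR1 were PCDH20 (0.115), which encodes a protocadherin, RRM2 (0.202), a ribonucleotide reductase subunit, and PTPRO (0.212), a receptor tyrosine phosphatase. PCDH20 averaged 7.11 at 40 °C, 7.44 at 37 °C, 3.82 in inhibitor cells and 4.18 in control cells. Nearest to CFP were KCNJ2 (0.145), a potassium channel, ADARB1 (0.176), an RNA-editing enzyme, and MCM7 (0.179), a subunit of the replicative helicase. Nearest to the brighter C5AR1 probe set were the homeobox gene NKX2-4 (0.146), SQSTM1 (0.147), an autophagy receptor, and APBA3 (0.148), an adaptor protein. SQSTM1 averaged 11.58 at 40 °C, 11.02 at 37 °C, 13.24 in inhibitor cells and 12.68 in control cells. The group means of C3AR1 ranged over 3.47, and control minus 40 °C came to −3.01. Likeness to C3AR1 therefore mostly reflects the offset between the experiments. All CFP values of the inhibitor experiment lay below the filter, which CFP passed only through the temperature arrays. No size is given for its range, and its place among these members and its nearest genes rest partly on those faint values.

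The rest of the pathway was read from a list of 39 other complement genes, of which 34 had at least 1 usable probe set and 22 passed the filter. At 40 °C 2 were called higher and 6 lower, with 14 not called and a median difference of 0.00. With the inhibitor 1 was called higher and 7 lower, with 14 not called and a median of −0.05. Over all genes the shares called were 39.3% and 45.2%, as given above. With the spike covariate 4 of these genes were called at 40 °C, all lower, and 1 with the inhibitor, lower. With the 50th percentile filter 5 were called in each comparison, and array weights gave 13 with the inhibitor (4 higher and 9 lower). Array weights also raised the calls over all 13909 genes with the inhibitor, from 6290 to 9079. The 13 are therefore to be read against that larger share, not against 45.2%. Most of the inhibitor calls described next are thus lost once the spike level is in the fit. That fit cannot separate the spike level from the group.

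In the classical and lectin pathways, 7 of 12 genes were tested, of which 1 fell at 40 °C and 2 fell with the inhibitor. C1S, the protease of the C1 complex that cleaves C4 and C2, had 4.18, 4.31 and 4.20 at 40 °C, against 5.13, 5.24 and 5.13 at 37 °C. It was 1.91-fold lower (limma, adjusted p = 1.77e-05), with no overlap. All C1S values at 40 °C lay below the filter, which the gene passed through the other groups. The size of this fold therefore rests on a faint signal at 40 °C. In the other experiment C1S had 4.91, 4.69 and 4.98 in inhibitor cells, against 6.09, 5.85 and 6.09 in control cells, a 2.22-fold lower level (limma, adjusted p = 0.000141). Its partner C1R, the protease that activates C1s, was 1.43-fold lower with the inhibitor, at 6.36 ± 0.15 against 6.88 ± 0.01 in control cells (SD, n = 3 each). All 3 of its probe sets were called lower there, and none was called at 40 °C. Of 7 terminal pathway genes 2 were tested, C5 and C8G, and neither was called in either comparison.

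Regulators protect host cells from complement, and 6 of 12 were tested. CD55, which speeds the decay of convertases, had 10.32, 10.31 and 10.33 at 40 °C, against 11.06, 10.95 and 10.98 at 37 °C. It was 1.60-fold lower (limma, adjusted p = 3.4e-05), and 6 of its 7 probe sets were called lower. With the inhibitor it was 1.30-fold lower, at 11.15 ± 0.04 against 11.53 ± 0.09 in control cells, again with 6 of 7 probe sets called. CD46, a cofactor for the cleavage of C3b, was 1.25-fold lower with the inhibitor, and all 12 of its probe sets were called lower. At 40 °C none of those 12 was called.

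CLU, a secreted chaperone that also binds the terminal complex, was 1.34-fold higher at 40 °C (5.62 ± 0.12 against 5.20 ± 0.02 at 37 °C). With the inhibitor CLU was 1.72-fold lower (5.68 ± 0.06 against 6.46 ± 0.02 in control cells). Its second probe set was not called in either comparison, with differences of 0.08 at 40 °C and 0.21 with the inhibitor. The fall of CLU with the inhibitor is therefore read from its brightest probe set only. CD59, which blocks assembly of the membrane attack complex, was called lower at 40 °C on its brightest probe set (−0.14; limma, adjusted p = 0.0429), but over all probe sets that call was lost and 2 of its 5 probe sets were called higher. Its direction at 40 °C therefore depends on the probe set.

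Among other receptors and binding proteins 7 of 8 were tested. VSIG4, a macrophage receptor for C3b and iC3b, had 7.88, 7.72 and 7.77 at 40 °C, against 8.67, 8.70 and 8.60 at 37 °C. It was 1.82-fold lower (limma, adjusted p = 2.61e-05) on a probe set whose 2 companions were also called lower. With the inhibitor VSIG4 differed by 0.10, with an interval from −0.10 to 0.30. ITGAM, the alpha chain of complement receptor 3, was 1.25-fold higher at 40 °C (11.81 ± 0.08 against 11.49 ± 0.04 at 37 °C) and 1.69-fold lower with the inhibitor (11.13 to 11.31 against 11.97 to 12.04 in control cells). All 3 ITGAM probe sets were called in the same direction in each comparison.

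ITGAX, the alpha chain of complement receptor 4, was 1.54-fold lower at 40 °C and 1.52-fold lower with the inhibitor, and in each comparison 2 of its 4 probe sets were called, both lower. Their shared beta chain ITGB2 was not called, with intervals from −0.13 to 0.08 at 40 °C and from −0.11 to 0.14 with the inhibitor. C5AR2, the second receptor for C5a, was 1.16-fold lower at 40 °C (limma, adjusted p = 0.0355), where C5AR1 was higher. With the inhibitor C5AR2 was 1.20-fold higher (limma, adjusted p = 0.0278). Neither C5AR2 call was made in the fit over all probe sets.

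**Figure D3:**
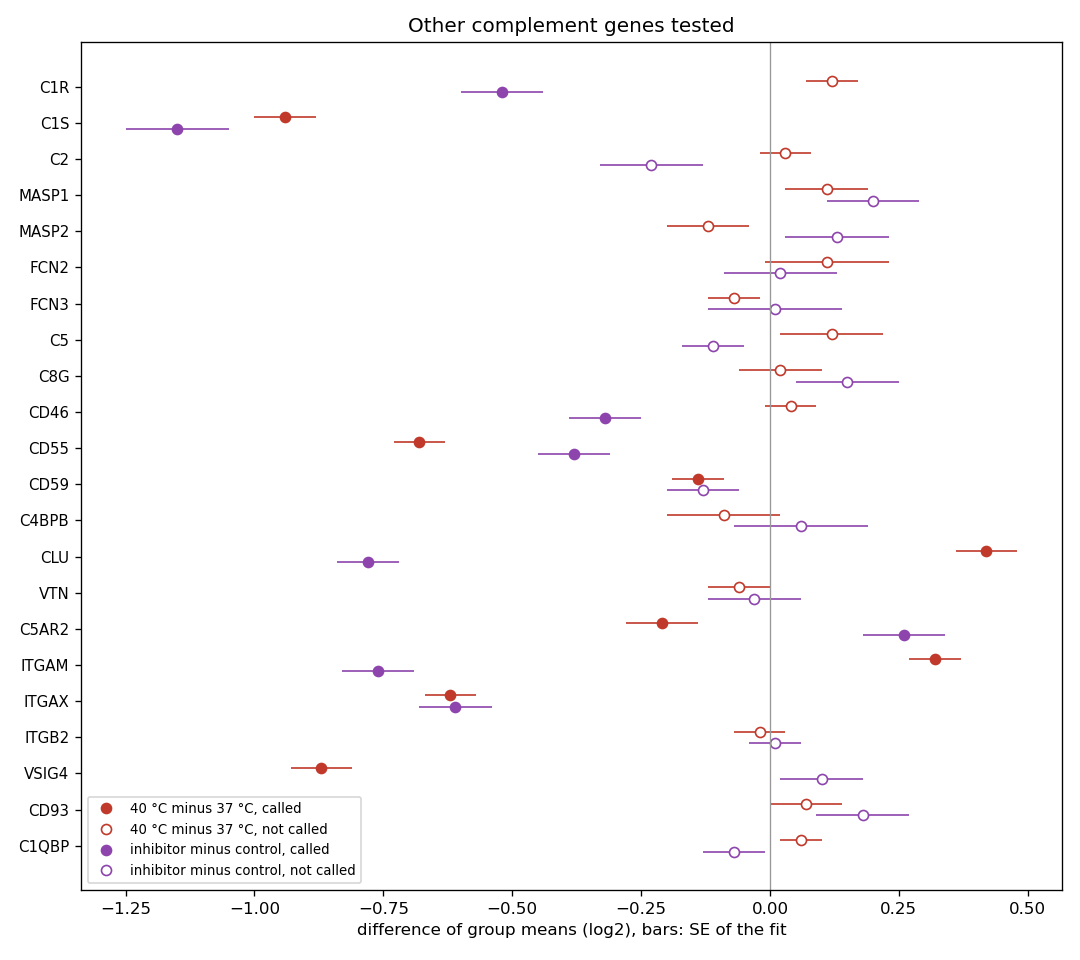
Difference of group means on the log2 scale for the 22 other complement genes tested, with the SE of the fit as bars; filled points were called (adjusted p under 0.05) and open points were not. C1S, CD55 and ITGAX lie left of 0 in both comparisons, while CLU and ITGAM lie right of 0 at 40 °C (0.42 and 0.32) and left of 0 with the inhibitor (−0.78 and −0.76). Each gene is shown by its brightest probe set, and the second CLU probe set differed by 0.21 with the inhibitor.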

How the data were processed

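Per the labels' protocols, total RNA from THP-1 cells was extracted with Trizol, labelled with biotin and hybridised to PrimeView Human arrays. The authors deposited log2 expression values per probe set, a unit read from the values, with background correction, normalization, software and build left as not given in the sources used here. Gene names came from the platform's annotation table, and Entrez numbers of all 10 members matched a current RefSeq table.

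For each gene the brightest probe set with exactly 1 symbol was used, and genes under the 30th percentile of the non-control probe sets (log2 4.48) were dropped. Each experiment was fitted alone with limma 3.58.1 in R 4.3.3 (lmFit, eBayes, two-sided, Benjamini-Hochberg), with 4 residual degrees of freedom, and a second fit took all 49293 probe sets without a filter. Alternatives were a joint fit of the 12 arrays, a replicate block, no filter or the 50th percentile, the mean of probe sets, quantile normalization, median centring, trend and robust eBayes, array weights, a poly-A spike covariate (mean of 12 probe sets) and leaving out each array. On simulated data for 13909 genes, 200 were changed, 50 at each size. Changes of 0.25, 0.5, 1 and 2 on the log2 scale were recovered in 44%, 76%, 96% and 100% for temperature. There were 8 false calls among 166. The shares were 4%, 44%, 82% and 100% for the inhibitor, with 5 among 120. Recovery with as many genes changed as were called in the data was not tested.

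Members and lists were chosen with earlier results of these data known. All members, every other complement gene called (at most 8 per comparison), marker genes and the 3 nearest profiles of the 3 members with the widest range of group means are named. Some genes of the pathway are not analysed here. Figures used Python 3.11.15 and matplotlib 3.10.9.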

Additional observations from a re-analysis of the deposited data

How the results depend on the processing

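Of 248 values of members under the alternatives, 216 kept their direction and their side of the threshold, 14 lost a call, 7 gained one and 11 changed sign. With the spike covariate 2278 and 247 genes were called in all (temperature and inhibitor), against 5472 and 6290 without it, with 3 and 0 members called and 4 and 1 other complement genes. Spike levels did not overlap between the groups of either comparison, so this fit cannot separate the spike level from the group. With the 50th percentile filter, which drops faint genes, 10579 genes and 5 members were tested. For temperature 5428 genes were called in all, with 3 members and 5 other complement genes. For the inhibitor 6093 genes were called in all, with 3 members and 5 other complement genes. Array weights gave 13 other complement genes and 6 members for the inhibitor, where the genes called in all rose from 6290 to 9079. The cause of this rise over all genes was not tested. Leaving out 1 array gave 4561 to 4921 genes for temperature and 5012 to 6960 for the inhibitor, 4 to 5 members in each, and 6 to 7 and 7 to 9 other complement genes.

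The sign changes all concern differences that were not called, except C5AR1 with the inhibitor (−0.002 as the mean of its probe sets, which differ in sign). For temperature they were C1QA without 37 °C replicate 2 (leaving out 1 array gave −0.062 to 0.093), C3 (−0.112) and CFP (−0.23) with the spike covariate, and CFP without 37 °C replicate 3 (−0.057) or 40 °C replicate 2 (leaving out 1 array gave −0.112 to 0.083). For the inhibitor they were C1QB with the spike covariate (−0.056), and CFB with array weights (0.021), with the spike covariate (0.213), without control replicate 2 and without inhibitor replicate 2 (0.053 and 0.010, where leaving out 1 array gave −0.152 to 0.053). Quantile normalization and median centring changed no sign among the members. The CFB call for temperature was also lost in the fit of all 12 arrays, with trend and robust eBayes and with the spike covariate (limma, adjusted p = 0.174, 0.0919 and 0.320).

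With the replicate number as a block 4955 and 4780 genes and 4 and 3 members were called. CFB at 40 °C (limma, adjusted p = 0.0566) and CFD with the inhibitor (0.0515) lost their calls. Deviations of same-numbered arrays correlated at −0.13, −0.10 and 0.23 for temperature and at −0.19, −0.60 and −0.15 for the inhibitor. Differently numbered arrays correlated at −0.28 to 0.33 and at −0.36 to 0.46. With 3 arrays per group, these values cannot decide whether the numbers pair the arrays. Faint signals (C1QC, CR1, C1S at 40 °C and, in the inhibitor experiment, CFP) limit what can be read from those genes.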
